A study of Homo sapiens with 6 samples.

Results

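The transcripts of 37 human genes that act in homologous recombination, in the Fanconi anemia pathway of crosslink repair, in the ATM and ATR checkpoints and in mismatch repair were followed in MDA-MB-231 cells, an established line of triple-negative breast cancer (TNBC). The genes were taken by name from a list of pathway members, and all 37 were found among the 15651 genes in the deposited table. RNA was sequenced from 6 cultures, 3 treated with the solvent DMSO and 3 treated with BRL-50481, a selective inhibitor of the phosphodiesterase PDE7A, which degrades cyclic AMP. The labels give the dose and time in their treatment text as 50 μM and 72 h, but in the sample tag as 5 μM and 48 h. Every sample is the same unmodified cell line, and the series record calls the 3 samples of each group biological replicates, so all that is described here concerns 1 line and 1 inhibitor. The study used these libraries to look for transcripts that change when PDE7A is inhibited.

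Homologous recombination mends a broken chromosome by copying the intact sister chromatid. Nucleases first trim the ends to single-stranded DNA, the BRCA1 and BRCA2 complexes then help to build a protein filament on it, and a group of further proteins stabilizes this filament and helps it find and invade its template. The Fanconi pathway joins this machinery when DNA strands are crosslinked. A core complex then attaches ubiquitin to FANCD2 and FANCI, and these recruit nucleases and helicases. The kinases ATM and ATR sense breaks and stalled forks and pass the signal to CHEK2 and CHEK1, which halt the cell cycle. Tumors with defects in these genes can be sensitive to inhibitors of poly (ADP-ribose) polymerase (PARP), which is why the pathway is often examined in TNBC.

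The deposited values are normalized counts, that is, the reads of a gene scaled by the size factor of its library. The libraries held 30750573 to 33446984 reads on genes. All 37 genes passed the filter of the Methods, which asks for 3 or more libraries with a normalized count of 4 or more, and their mean normalized counts ran from 134 for RAD51D to 4917 for RAD50, with a median of 855. The mesenchymal markers of the cell line were abundant, with mean DMSO normalized counts of 58840.4 for VIM and 31414 for CD44, against 1.67 for the progesterone receptor gene PGR. ESR1, the estrogen receptor gene, is not listed in the table. Other luminal and receptor markers were abundant too, with mean DMSO normalized counts of 15205 for KRT18, 7714 for KRT19 and 6521 for KRT8. ERBB2 (1677), EPCAM (764) and GATA3 (189) were lower, and FOXA1 (43.6) and CDH1 (38.2) were low. All 6 basal B and mesenchymal markers rose with BRL-50481, and of 8 luminal and receptor markers tested 5 rose and 3 fell. By the same call, 28.9% of all genes tested rose and 29.8% fell. Within each group, replicate 1 was most often the highest library in these genes. DMSO replicate 1 was the highest DMSO library for 22 of the 37, or 59.5%, against 37.1% of all genes tested, and BRL-50481 replicate 1 the highest of its group for 20, or 54.1%, against 33.8%. Values without DMSO replicate 1 are given for the genes whose call changed without it and for some others. In such bulk samples, a change in RNA per cell cannot be told apart from a change in the share of cells that hold the transcript.

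The pathway did not move as 1 block. limma compared the groups on log2(normalized count + 1) in 15246 genes, with Benjamini-Hochberg adjustment across them. At an adjusted p-value under 0.05, 12 of the 37 rose with BRL-50481 and 12 fell. These are 32.4% each, against 28.9% and 29.8% of all genes tested, so the share of genes that changed was near the background of 58.7%. The median log2 fold change was −0.031, against 0.015 over all genes tested, and single genes ranged from −1.08 to 0.96. In 12 genes every BRL-50481 library lay above every DMSO library (31.9% of all genes did so), in 13 every one lay below (32.3%), and in 12 the groups overlapped. Over all genes the groups were apart, in either direction, in 64.2%. Without DMSO replicate 1, 14 were called higher and 13 lower, and the shares of all genes in that fit are not given here. After a correction of each library for transcript length and GC content, 7 were higher and 16 lower. In that fit the shares over all genes were 28.3% higher and 37.4% lower. The further criterion of the Methods, an absolute log2 fold change above 1, was met by XRCC3 alone among the members, against 5.06% of all genes on the higher side and 2.98% on the lower side.

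The sub-pathways, which were drawn up by textbook role, differed in their counts. All 4 genes of the Fanconi ID complex and its effectors rose (median log2 fold change 0.43). In the BRCA complexes 3 of 5 rose and 0 fell, at a median of 0.24, but after the length and GC correction 1 of 5 was higher and the median was 0.066. In the Fanconi core complex 1 of 8 was higher and 4 were lower, with a median of −0.16. The genes of the filament and of strand invasion held 1 higher and 3 lower of 7 (median −0.031), end resection and dissolution 1 higher and 2 lower of 5 (median −0.045), and the checkpoint genes 2 higher and 2 lower of 6 (median −0.056). Of the 2 mismatch repair genes, 1 was lower. Over all genes tested 28.9% rose and 29.8% fell, and after the length and GC correction 28.3% were higher and 37.4% lower. No test compared the sub-pathways, which are small, so a count near these shares is not a result about a sub-pathway.

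**Figure D1:**
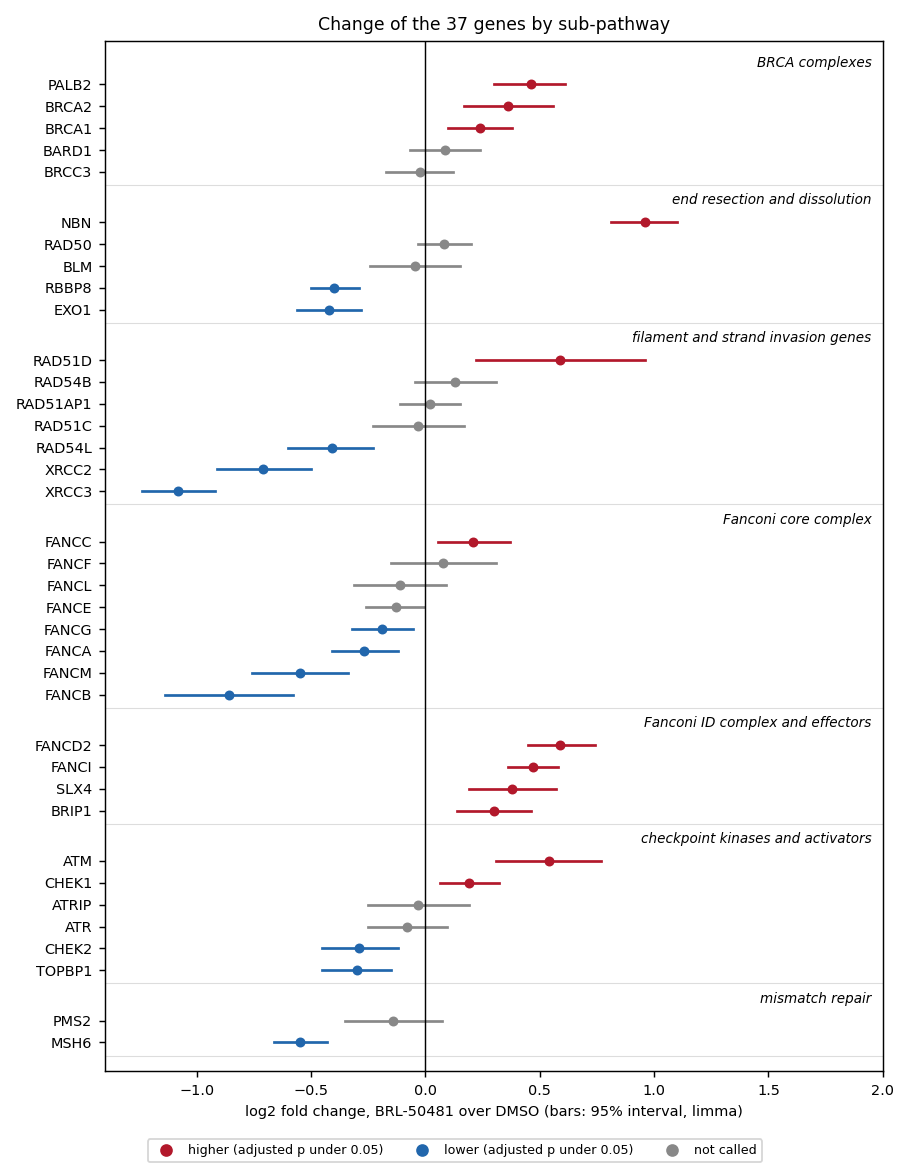
Log2 fold change of BRL-50481 over DMSO for each of the 37 genes, grouped by sub-pathway, as a point with its 95% interval from limma over 3 libraries a group. The 4 genes of the Fanconi ID complex and effectors lie to the right of 0, between 0.30 and 0.59, whereas XRCC3 (−1.08) and FANCB (−0.86) lie farthest to the left and NBN (0.96) farthest to the right.

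FANCD2 and FANCI, the pair of proteins that the core complex marks with ubiquitin, both rose. FANCD2 (chromosome 3 of hg38, 10026370 to 10101932, plus strand) had normalized counts of 808, 757 and 735 in the DMSO libraries and 1172, 1097 and 1199 in the BRL-50481 libraries. FANCI (chromosome 15, 89243945 to 89317261) had 2303, 2128 and 2159 in DMSO and 3085, 2991 and 3048 in BRL-50481. Every BRL-50481 library lay above every DMSO library for both genes. FANCD2 has pseudogene copies that could share its reads. The log2 fold change was 0.59 for FANCD2 (standard error, SE, 0.0678; adjusted p = 7.6e-06, limma) and 0.47 for FANCI (SE 0.0528, adjusted p = 6.37e-06, limma). FANCI remained the more abundant of the pair per length, at 643 normalized counts per kb of transcript in BRL-50481, against 227 for FANCD2.

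The effectors that act after the ID complex moved the same way by less. SLX4, the scaffold that brings structure-specific nucleases to the crosslink, had 292, 296 and 272 normalized counts in DMSO and 365, 393 and 362 in BRL-50481, a log2 fold change of 0.38 (SE 0.0889, adjusted p = 0.00242, limma). BRIP1, the helicase FANCJ that binds BRCA1, had 598, 546 and 563 in DMSO and 661, 718 and 722 in BRL-50481, a log2 fold change of 0.30 (SE 0.0746, adjusted p = 0.00372, limma). The groups did not overlap for either gene. BRIP1 did not pass the threshold after a correction of each library for transcript length and GC content, where its log2 fold change was 0.097 (adjusted p = 0.219, limma), while FANCD2 (0.47), FANCI (0.36) and SLX4 (0.26) did.

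The genes of the core complex, the ubiquitin ligase itself, mostly fell or did not pass the test. FANCB, on the X chromosome (14690388 to 14873255), a scaffold that pairs with the ligase subunit FANCL, had 299.6, 229 and 229 normalized counts in DMSO and 149, 131 and 134 in BRL-50481. Its log2 fold change was −0.86 (SE 0.129, adjusted p = 8.19e-05, limma), and the lowest DMSO library lay well above the highest BRL-50481 library. FANCM, the translocase that anchors the complex to DNA, had 636, 494 and 581 in DMSO and 405, 396 and 363 in BRL-50481, a log2 fold change of −0.55 (SE 0.0987, adjusted p = 0.000350, limma). Smaller falls were found in the subunits FANCA (−0.27, adjusted p = 0.00467, limma) and FANCG (−0.19, adjusted p = 0.0179, limma). FANCC was higher, from 597 ± 25.7 to 691 ± 23.3 normalized counts (SD, n = 3 libraries each), or 0.21 on the log2 scale with an adjusted p of 0.0227 in limma. The calls of FANCG and FANCC were each lost in 3 of the 6 fits that left out 1 library, where their adjusted p in limma reached 0.0623 and 0.0903.

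The other 3 core genes did not pass the threshold. FANCL, the catalytic subunit, had 375 ± 23.1 normalized counts in DMSO against 348 ± 25.1 with BRL-50481 (SD, n = 3 each), with a log2 fold change of −0.11 and a 95% interval of −0.31 to 0.090. FANCF, an adaptor encoded by a gene without introns, had 215, 195 and 235 in DMSO and 224, 224 and 232 in BRL-50481, with an interval of −0.15 to 0.31. FANCE, which bridges the core complex to FANCD2, lay lower in every BRL-50481 library (1168, 1142 and 1128) than in any DMSO library (1235, 1303 and 1236), but its log2 fold change of −0.13 had an adjusted p of 0.0667 in limma. It passed the threshold without DMSO replicate 1 (adjusted p = 0.0278, limma).

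**Figure D2:**
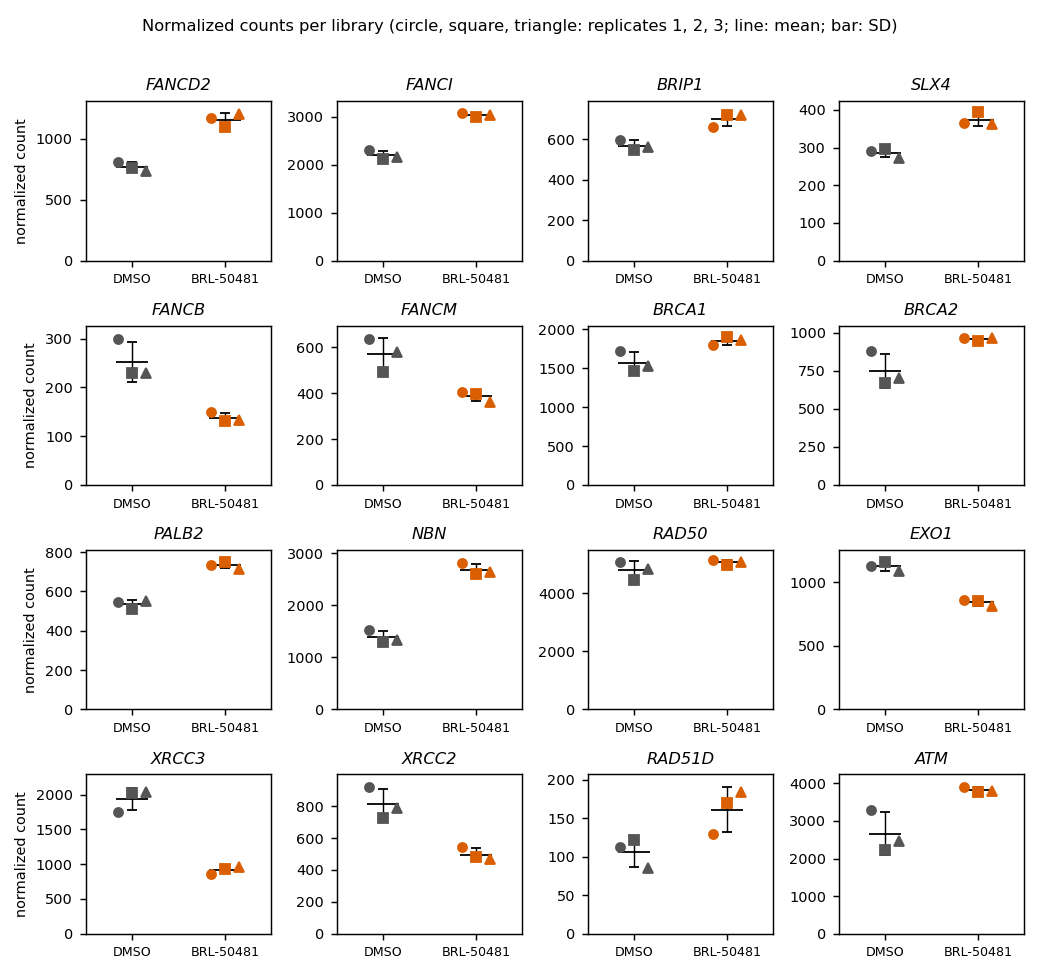
Normalized counts of 16 of the genes in each library, on an axis that starts at 0, with the mean as a line and the SD as a bar (n = 3 libraries a group), and circles, squares and triangles for replicates 1, 2 and 3. The BRL-50481 libraries lie above the DMSO libraries in FANCD2, FANCI, BRIP1, SLX4, BRCA1, BRCA2, PALB2, NBN, RAD51D and ATM and below them in FANCB, FANCM, EXO1, XRCC2 and XRCC3, while the groups overlap in RAD50.

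The 3 genes whose products link damage recognition to the building of the filament rose. PALB2 joins BRCA1 to BRCA2 and showed the largest of these changes, from 547, 510.4 and 549.5 normalized counts in DMSO to 736, 752 and 716 in BRL-50481. Its log2 fold change was 0.46 (SE 0.0713, adjusted p = 0.000111, limma). BRCA2 (chromosome 13, 32315086 to 32400268), which builds the filament, had 879, 672 and 702 in DMSO and 968, 944 and 965 in BRL-50481, a log2 fold change of 0.36 (SE 0.0913, adjusted p = 0.00401, limma). BRCA1 (chromosome 17, 43044295 to 43170245) had 1718, 1468 and 1535 in DMSO and 1799, 1907 and 1860.0 in BRL-50481, a log2 fold change of 0.24 (SE 0.0658, adjusted p = 0.00678, limma). DMSO replicate 1 was the DMSO library nearest to the BRL-50481 libraries for both BRCA genes, and without it the log2 fold changes were 0.48 and 0.30. After the length and GC correction PALB2 was still higher (0.37, adjusted p = 7.23e-05, limma), but BRCA2 (0.11, adjusted p = 0.0811) and BRCA1 (0.066, adjusted p = 0.188) did not pass the threshold in limma.

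BARD1, the obligate partner of BRCA1 in its ubiquitin ligase, had 596, 572 and 618 normalized counts in DMSO and 630.2, 652 and 615 in BRL-50481, which overlapped. Its log2 fold change was 0.087 with a 95% interval of −0.068 to 0.24, an interval that includes the estimate for BRCA1. BRCC3, a deubiquitinase of the BRCA1-A complex, went from 1084 ± 52.1 to 1066 ± 49.4 (SD, n = 3 each), with an interval of −0.17 to 0.12.

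NBN had the largest rise among the 37 genes. It encodes the subunit of the MRE11, RAD50 and NBN complex that recruits ATM to a break, and its normalized counts went from 1518, 1294 and 1333 in DMSO to 2812, 2593 and 2640.3 in BRL-50481. The log2 fold change was 0.96 (SE 0.0674, adjusted p = 1.12e-07, limma), and it was 1.03 without DMSO replicate 1 and 0.84 after the length and GC correction. RAD50, the zinc-hook subunit of the same complex, had 5056, 4436 and 4842 in DMSO and 5133, 4973 and 5059.6 in BRL-50481. Its log2 fold change of 0.083 (adjusted p = 0.207, limma) turned with the processing, since it was 0.13 and passed the threshold without DMSO replicate 1 (adjusted p = 0.00915, limma), but was −0.13 and lower after the length and GC correction (adjusted p = 0.00345, limma).

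Of the nuclease genes of end trimming, RBBP8 and EXO1 fell. RBBP8 encodes CtIP, which starts resection together with the NBN complex. It had 3619, 3426 and 3471 normalized counts in DMSO and 2694, 2665 and 2623 in BRL-50481, a log2 fold change of −0.40 (SE 0.0494, adjusted p = 1.58e-05, limma). EXO1, the exonuclease that extends the resected tract, had 1132, 1163 and 1087 in DMSO and 863, 849 and 814 in BRL-50481, a log2 fold change of −0.42 (SE 0.0634, adjusted p = 8.31e-05, limma). The groups were well separated for both genes. BLM, the helicase that works with DNA2 in resection and dissolves double Holliday junctions, overlapped between the groups (715 ± 72.6 and 693 ± 65.8, SD, n = 3 each), with a 95% interval of −0.24 to 0.15. It was called lower after the length and GC correction (−0.17, adjusted p = 0.0337, limma).

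XRCC3, XRCC2, RAD51C and RAD51D, which stabilize the filament, work in 2 complexes, and their transcripts changed unequally within each. XRCC3 (chromosome 14, 103697609 to 103715504) forms a complex with RAD51C. It had 1752, 2028 and 2032 normalized counts in DMSO and 861, 932 and 953 in BRL-50481, a log2 fold change of −1.08 (SE 0.0722, adjusted p = 7.47e-08, limma). RAD51C had 496, 594 and 531 in DMSO and 474, 537 and 576 in BRL-50481, with a log2 fold change of −0.031 and a 95% interval of −0.23 to 0.17. XRCC3 therefore fell in every library while its partner overlapped between the groups.

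The other complex holds RAD51B, RAD51C, RAD51D and XRCC2. XRCC2 (chromosome 7, 152644776 to 152676193) had 919.8, 728 and 792 normalized counts in DMSO and 542, 480.5 and 467 in BRL-50481, a log2 fold change of −0.71 (SE 0.0942, adjusted p = 2.88e-05, limma). RAD51D, the least abundant of the 37 genes, had 112, 122 and 84.8 in DMSO and 129, 170.2 and 184 in BRL-50481, a log2 fold change of 0.59 (SE 0.171, adjusted p = 0.00908, limma). Its lowest BRL-50481 library was close to its highest DMSO library, its exons overlap an unnamed annotated gene on its strand, and after the length and GC correction it did not pass the threshold (0.34, adjusted p = 0.0886, limma). RAD51B, which is in the list of further pathway genes, was higher, from 168 ± 23.1 to 259 ± 14.5 (SD, n = 3 each).

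Of the genes of strand invasion, RAD54L fell. It encodes a DNA-translocating motor, and it had 517, 552 and 540.4 normalized counts in DMSO and 370.5, 432 and 407 in BRL-50481, a log2 fold change of −0.41 (SE 0.0841, adjusted p = 0.000907, limma). Its relative RAD54B, whose exons overlap those of FSBP on the same strand, had 569.5, 512 and 485 in DMSO and 571, 554 and 587 in BRL-50481, with a 95% interval of −0.045 to 0.31. It was called higher without DMSO replicate 1 (0.19, adjusted p = 0.0328, limma). RAD51AP1, which stimulates strand invasion, was the steadiest of the 37 genes by its log2 fold change, with 1131 ± 16.8 and 1147 ± 18.5 normalized counts (SD, n = 3 each) and an interval of −0.11 to 0.15.

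Promoters of members with large changes at a mean normalized count of 100 or more are shown with the words for cell-cycle factors that each carries, if any. RefSeq promoters on GRCh38.p14, from 250 bases before to 50 bases after the annotated start, were matched by symbol for 34 of the 37 genes, and those of NBN, RAD54B and FANCI were not. Both strands were searched for E2F words (TTTCCCGC, TTTCGCGC, TTTGCCGC and TTTGGCGC), for the word CCAAT, and for words of the cell-cycle homology region, CHR (TTTGAA and TTCGAA). No word of one kind contains a word of another. Each sequence reads 5′ to 3′ on the strand of the gene, and capitals mark the words found. The first 2 are those of the largest falls, XRCC3 (minus strand, chr14:103715402-103715701) and FANCB (minus strand, chrX:14873020-14873319). The last 2 are those of RAD51D and FANCD2, which rose most after NBN: RAD51D (minus strand, chr17:35119709-35120008), FANCD2 (plus strand, chr3:10026187-10026486).
XRCC3: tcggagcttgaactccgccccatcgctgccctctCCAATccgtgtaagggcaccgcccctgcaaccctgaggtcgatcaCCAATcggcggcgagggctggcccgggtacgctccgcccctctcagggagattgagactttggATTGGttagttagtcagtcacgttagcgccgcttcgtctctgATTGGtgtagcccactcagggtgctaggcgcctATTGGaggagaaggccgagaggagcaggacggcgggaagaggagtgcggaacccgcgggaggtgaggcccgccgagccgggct
FANCB: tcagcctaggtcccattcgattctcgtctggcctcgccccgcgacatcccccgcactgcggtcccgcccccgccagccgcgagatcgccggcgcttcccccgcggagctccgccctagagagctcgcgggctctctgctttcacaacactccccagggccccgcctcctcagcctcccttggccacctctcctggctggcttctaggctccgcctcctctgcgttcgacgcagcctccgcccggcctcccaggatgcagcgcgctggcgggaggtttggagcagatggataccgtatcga
RAD51D: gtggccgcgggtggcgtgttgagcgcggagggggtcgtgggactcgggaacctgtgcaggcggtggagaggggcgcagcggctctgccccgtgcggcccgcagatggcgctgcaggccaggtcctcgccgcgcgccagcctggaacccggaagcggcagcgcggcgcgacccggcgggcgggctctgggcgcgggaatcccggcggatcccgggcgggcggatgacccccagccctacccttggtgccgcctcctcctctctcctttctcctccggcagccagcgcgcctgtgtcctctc
FANCD2: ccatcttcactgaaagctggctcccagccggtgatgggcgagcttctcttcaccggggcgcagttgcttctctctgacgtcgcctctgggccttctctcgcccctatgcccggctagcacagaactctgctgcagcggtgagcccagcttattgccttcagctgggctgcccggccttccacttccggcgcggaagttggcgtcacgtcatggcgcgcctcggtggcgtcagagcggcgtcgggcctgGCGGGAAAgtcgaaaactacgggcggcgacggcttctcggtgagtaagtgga

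The XRCC3 promoter carried 5 CCAAT words, a number reached by 110 of 27305 RefSeq promoters (0.403%). That of FANCD2 carried 1 E2F word, which begins 2 bases before the annotated start, and those of FANCB and RAD51D carried none of the words searched. E2F words were found in 8 of the 34 member promoters (23.5%), against 3.33% of all promoters and 5.16% of those of genes tested here. The 8 genes were EXO1, XRCC2, FANCA, FANCC, FANCD2, TOPBP1, MSH6 and PMS2. Of these, 5 fell and 2 rose (median log2 fold change −0.28), whereas of the 26 members without an E2F word 7 fell and 8 rose (median −0.028). CCAAT words were found in 15 member promoters (44.1%, against 35.7% of all and 36.4% of those of genes tested), of which 6 fell and 4 rose. CHR words were found in 3, those of FANCC, BRIP1 and ATM (8.82%, against 16.6% of all and 11.4% of those of genes tested), and all 3 genes rose. From the annotated start, these words begin at −248 in FANCC, −240 in BRIP1 and −20 in ATM. FANCC and BRIP1 were not called after the length and GC correction. Over all genes tested, with or without a word, 28.9% rose and 29.8% fell. The calls of all genes tested that carry each word were not taken, so these counts are not a result about the words. A word found is a description of the sequence and not evidence of a bound factor. E2F1, a factor of S phase entry, had 1872, 2181 and 2052 normalized counts in DMSO and 875, 904 and 969 in BRL-50481 (log2 fold change −1.15, adjusted p = 3.4e-08, limma). PDE7A, the gene of the inhibited enzyme, had 406, 405 and 409 in DMSO and 341, 292 and 261 in BRL-50481 (log2 fold change −0.45, adjusted p = 0.00199, limma).

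In the checkpoint, the kinase ATM rose and its sister kinase ATR did not pass the test. ATM (chromosome 11, 108223044 to 108369102) had 3297, 2223 and 2479 normalized counts in DMSO and 3908, 3764 and 3792 in BRL-50481, a log2 fold change of 0.54 (SE 0.106, adjusted p = 0.000687, limma). DMSO replicate 1 lay far above the other DMSO libraries, and the log2 fold change was 0.70 without it. ATR had 1706, 1392 and 1361 in DMSO and 1457, 1369.9 and 1373 in BRL-50481, so that the groups overlapped (log2 fold change −0.079, adjusted p = 0.421, limma), and the sign turned without DMSO replicate 1 (0.024). With the length and GC correction ATM was higher by less (0.26, adjusted p = 0.000268, limma) and ATR was called lower (−0.29, adjusted p = 0.000105, limma). These are among the longest transcripts here, at 12915 and 8158 bases.

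ATRIP, which brings ATR to single-stranded DNA and shares exon sequence with TREX1, had 222 ± 15.8 normalized counts in DMSO against 217 ± 5.29 with BRL-50481 (SD, n = 3 each), with a 95% interval of −0.25 to 0.19. TOPBP1, the activator of ATR, fell from 2254, 1863 and 2151 in DMSO to 1724, 1641 and 1700.1 in BRL-50481, a log2 fold change of −0.30 (SE 0.0699, adjusted p = 0.00225, limma). The effector kinases diverged. CHEK1, the target of ATR, had 2453, 2169.8 and 2205 in DMSO and 2629.5, 2536 and 2623 in BRL-50481, a log2 fold change of 0.19 (SE 0.0586, adjusted p = 0.0127, limma), and its call was lost in 3 of the 6 fits that left out 1 library (adjusted p of up to 0.0603, limma). CHEK2, the target of ATM, had 712, 759 and 742 in DMSO and 643, 613 and 560.2 in BRL-50481, a log2 fold change of −0.29 (SE 0.0755, adjusted p = 0.00538, limma). No BRL-50481 library overlapped a DMSO library for TOPBP1, CHEK1 or CHEK2. Exons of CHEK1 overlap those of STT3A on the same strand and CHEK2 has pseudogene copies, so the reads of both may be shared.

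MSH6 recognizes mismatches, and it fell in every BRL-50481 library. It had 4399, 3938 and 4294 normalized counts in DMSO and 2876, 2869 and 2882 in BRL-50481, a log2 fold change of −0.55 (SE 0.0536, adjusted p = 1.92e-06, limma). PMS2, a nuclease of mismatch repair, had 469, 373 and 456 in DMSO and 402, 397 and 376 in BRL-50481, with a 95% interval of −0.35 to 0.074. PMS2 is uncertain because it has near-identical pseudogene copies that could share its reads. Its call depended on 1 library and on the correction, since it was lower without DMSO replicate 2 (−0.24, adjusted p = 0.0352, limma) and after the length and GC correction (−0.25, adjusted p = 0.0153, limma).

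Whether genes whose products act together kept their proportion was asked of 15 pairs, by the log2 ratio of the partners in each library. For 3 libraries against 3, the two-sided exact permutation test cannot give a p below 0.1, which is 0.136 at best here after adjustment over the 15 pairs, so none can pass a threshold of 0.05. Of the 13 pairs in which both genes are members, which are those described, 9 reached that smallest p. It is reached whenever the groups do not overlap, which single genes did in 64.2% of all genes tested. The share among other pairs of genes was not taken, so the count is not a result about partners. The ratio of RAD51D to XRCC2 rose by the largest amount, by 1.30 ± 0.293 on the log2 scale (difference and its standard error, n = 3 each, exact permutation p = 0.1). The ratio of RAD51C to XRCC3 rose by 1.05 ± 0.0618, that of ATM to ATR by 0.62 ± 0.0825 and that of CHEK1 to CHEK2 by 0.48 ± 0.103. On that scale, RAD50 to NBN fell by 0.88 (SE 0.0436) and FANCB to FANCL fell by 0.75 (SE 0.183). RAD54L to RAD54B fell by 0.54 (SE 0.12), and FANCC to FANCE rose by 0.34 (SE 0.0624).

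The other pairs of members moved by less than these. The ratio of FANCD2 to FANCI rose by 0.12 (SE 0.0345), with p at the same floor. The ratios of BRCA1 to BARD1 (0.15 ± 0.0689, exact permutation p = 0.2), BRCA2 to PALB2 (−0.093 ± 0.108, p = 0.6), FANCA to FANCG (−0.076 ± 0.0728, p = 0.4) and ATR to ATRIP (−0.047 ± 0.161, p = 1.00) overlapped between the groups.

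**Figure D3:**
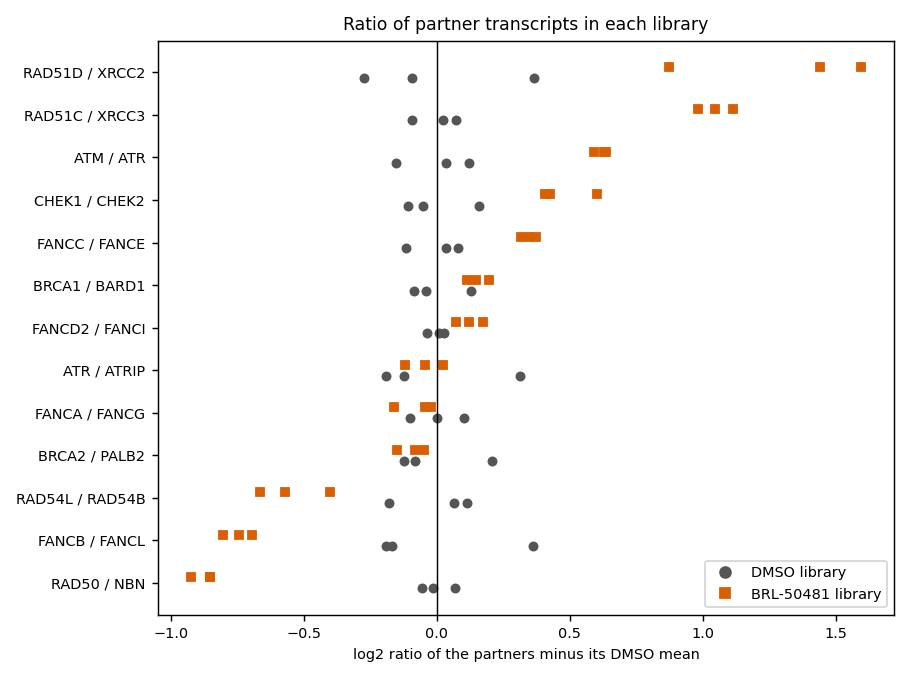
Log2 ratio of the normalized counts of 13 partner pairs in each library, set to a mean of 0 in DMSO, with circles for DMSO and squares for BRL-50481 libraries. RAD51D to XRCC2 lies farthest to the right, higher by 1.30, and RAD50 to NBN farthest to the left, while the libraries overlap for BRCA1 to BARD1, BRCA2 to PALB2, FANCA to FANCG and ATR to ATRIP.

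Transcript length moved with the change of these genes. Their canonical transcripts had a median of 4592 bases, against 3150 over all genes with a match, and ran from 1658 bases in FANCL to 12915 in ATM. Across the 37 genes, which share the same 6 libraries and are not independent, Spearman's rho between length and log2 fold change was 0.419, and across the 14741 genes tested with a known length it was 0.175. The 7 higher and 16 lower genes after the correction for length and GC content stand against 28.3% higher and 37.4% lower over all genes. BRCA1, BRCA2, RAD51D, FANCC and BRIP1 were no longer called, and RAD50, BLM, ATR and PMS2 were called lower. The corrected medians were 0.31 in the Fanconi ID complex and effectors, 0.066 in the BRCA complexes and −0.14 in the core complex. The part of transcript length in the uncorrected changes was not tested beyond this.

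**Figure D4:**
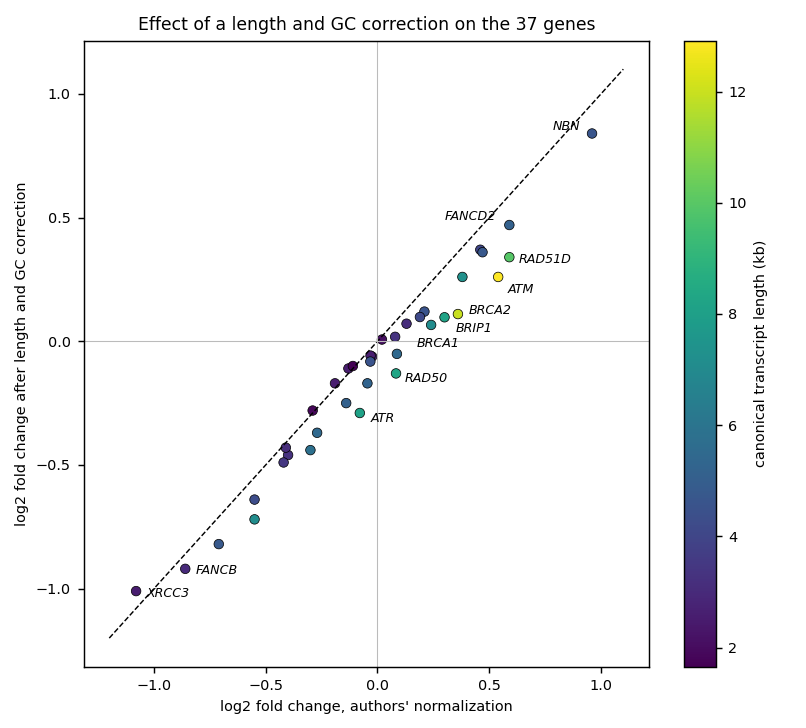
Log2 fold change of the 37 genes with the authors' normalization (horizontal) and after a correction of each library for transcript length and GC content (vertical), with the dashed line where both are equal and the color giving transcript length in kb. Long transcripts such as ATM (0.54 and 0.26), BRCA2 (0.36 and 0.11) and RAD51D (0.59 and 0.34) lie farthest below the line, and XRCC3 (−1.08 and −1.01) lies near it.

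Other genes of the same pathways, taken from lists written from general knowledge, were also mixed. Of 42 further homologous recombination and Fanconi genes, 18 rose and 13 fell (median log2 fold change 0.13). These are 42.9% and 31.0%, against 28.9% and 29.8% of all genes tested. The largest changes at a mean normalized count of at least 100 were rises of GEN1, a Holliday junction resolvase (0.67), and RAD51B (0.63), and falls of CENPX, a small partner of FANCM also called MHF2 (−1.14), and RPA2, a subunit of the single-strand binding protein RPA (−0.64). CENPX had 1531 ± 149 normalized counts in DMSO against 691 ± 14.9 with BRL-50481 (SD, n = 3 each, adjusted p = 6.37e-08, limma). Of 20 further checkpoint and damage signaling genes, 6 were higher (30.0%) and 7 lower (35.0%), near the shares of all genes.

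The checkpoint genes outside the member list held larger falls than any member. CDC25A, the phosphatase that CHEK1 restrains, had 1870.3 ± 38.4 normalized counts in DMSO against 573 ± 15.3 with BRL-50481 (SD, n = 3 each), or −1.70 on the log2 scale (SE 0.0609, adjusted p = 5.97e-10, limma). CLSPN, the adaptor claspin through which ATR activates CHEK1, went from 3350.2 ± 37.8 to 1173 ± 116, a log2 fold change of −1.52 (SE 0.0679, adjusted p = 3.19e-09, limma). RHNO1, which helps TOPBP1 activate ATR, was higher (0.84), as was the fork protection gene TIMELESS (0.58). Among 5 further mismatch repair genes, 2 were higher, among them MSH3 (0.58), and 2 lower, among them PMS1 (−0.40). In non-homologous end joining, the rival pathway of break repair, 6 of 14 genes were higher (42.9%) and 5 lower (35.7%), with a median of 0.12. They were led by APLF (0.58) and POLL (0.51) on one side and PAXX (−0.57) and APTX (−0.49) on the other. Over all genes tested, 28.9% were higher and 29.8% lower.

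Markers of cell-cycle phase also changed, at shares unlike the 28.9% higher and 29.8% lower of all genes tested. Of 16 S phase markers, 14 fell and 0 rose (median log2 fold change −0.85), and their summed normalized counts were 35547 to 36758 in the DMSO libraries, against 19013 to 19548 with BRL-50481. The most abundant were PCNA (−1.25), CDC6 (−0.98) and MCM4 (−0.88). Of 16 G2 and M phase markers, 15 were higher and 0 were lower, with a median of 0.79 and sums of 60332 to 63220.0 in the DMSO libraries, against 101768 to 103282 with BRL-50481, led in abundance by TOP2A (1.03), CENPF (0.84) and TPX2 (0.60). Each group of libraries was separate from the other in both sums. The part of cell-cycle phase in the changes of the 37 genes was not tested.

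**Figure D5:**
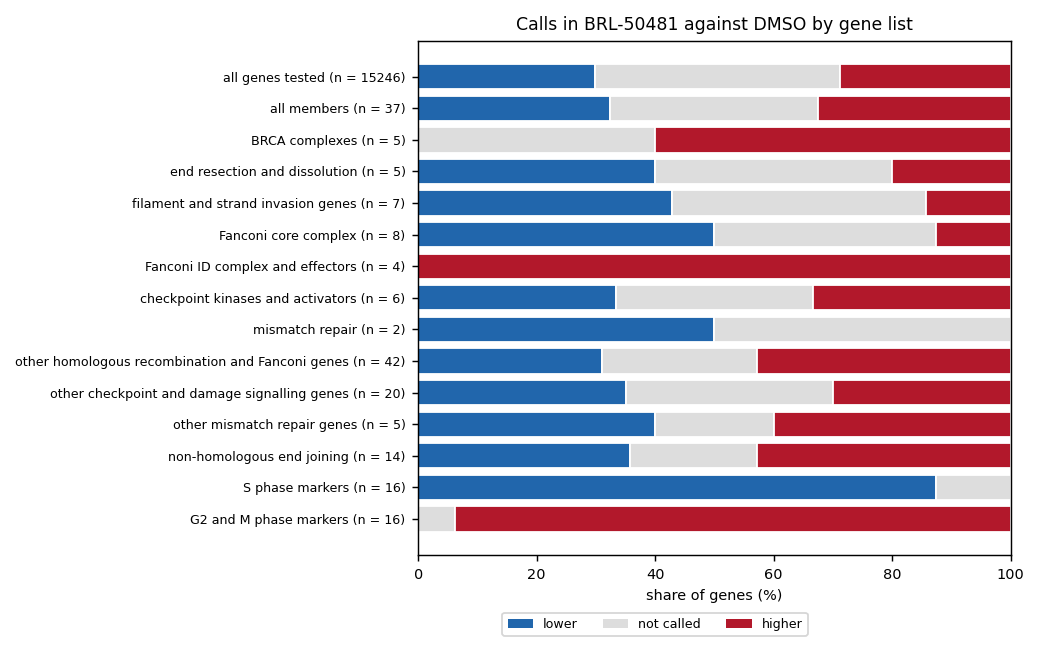
Share of genes called lower (blue), not called (gray) and higher (red) at an adjusted p-value under 0.05 in BRL-50481 against DMSO, for all genes tested, the 37 members, each sub-pathway and the further lists, with the number of genes in parentheses. The members as a whole (32.4% lower, 32.4% higher) resemble all genes (29.8% and 28.9%), while the S phase list is 87.5% lower and the G2 and M phase list 93.8% higher.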

How the data were processed

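RNA-seq of 6 libraries was used, 3 per group as labeled. The labels describe oligo-dT selection, but the series record rRNA depletion, and the record and the Methods name different instruments. The authors mapped the reads on hg38 (STAR 2.7.1a), counted them by gene for the reverse strand with HTSeq and UCSC gene models, and scaled them with DESeq2 1.28, versions as in the submitters' processing notes. The deposited signal is the read count divided by a size factor of the library, and the deposited mean signal is its mean over the libraries. The authors' deposited log2 fold changes with their errors, test score, and p-values were not used. Division by the value of 1 read gave the reads on genes.

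limma 3.58.1 in R 4.3.3 (eBayes with a trend, group as the only term) was run on log2(normalized count + 1) for the 15246 genes that passed the filter, so that a fold change is on that scale. The alternatives were pseudocounts of 0.5 and 4, other filters, quantile and median scaling, no trend, a replicate block, leaving out each library, and a loess correction (span 0.5) on length and GC content of GENCODE 44 canonical transcripts, known for 96.5% of genes. The fit was also run on simulated counts in which far fewer genes changed than were called here, so that run does not test this setting. Positions and overlaps are GENCODE's on hg38. Exons of 10 members overlap another gene on the same strand (BRCA1, RAD50, RBBP8, RAD51D, RAD54B, FANCB, FANCG, ATR, ATRIP and CHEK1), so their reads may be shared, and PMS2, CHEK2 and FANCD2 have pseudogene copies.

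The members and gene lists were chosen with earlier results of these data known. Named genes are all members, the 2 largest called changes in each direction of each further list at a mean of at least 100, the 3 most abundant phase markers, the cell-line markers, E2F1 and PDE7A. Promoters shown are those of the 2 largest called falls and rises at that mean outside 1 chromosome, which leaves out NBN. Some genes that this rule names, and the 2 partner pairs that hold them, are not reported here.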

Additional observations from a re-analysis of the deposited data

How the results depend on the processing

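Of the 37 genes, 19 kept their direction and their side of the threshold under all 15 alternatives run, and 519 of the 555 single fits did. The planned count-based tests, edgeR and DESeq2, were not run. With 1 library left out, 10 to 14 genes were higher and 11 to 13 lower. After the length and GC correction 7 were higher and 16 lower, against 28.3% higher and 37.4% lower over all genes. NBN passed a log2 fold change of 1 with quantile normalization, which gave 1 higher gene past it, and without DMSO replicate 1, so that this count was 0 to 1. Deviations from the group mean correlated at 0.121, 0.104 and 0.0514 between same-numbered libraries, against −0.159 to 0.0607 between differently numbered ones. Each DMSO library correlated most with the BRL-50481 library of its number, but BRL-50481 replicate 3 correlated more with DMSO replicate 2 (0.0607). The main fit did not pair the samples, and the replicate block left 12 higher and 12 lower.

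After the length and GC correction, the median log2 fold change was −0.082 for all members, 0.066 for the BRCA complexes, −0.17 for end resection and dissolution, 0.31 for the Fanconi ID complex and effectors, −0.18 for the checkpoint genes and −0.45 for mismatch repair. With 1 library left out, the medians ranged from −0.032 to 0.024 for all members, 0.19 to 0.30 for the BRCA complexes, −0.12 to 0.034 for end resection and −0.095 to 0.031 for the filament and strand invasion genes.

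Genes near 0 changed sign. With the length and GC correction, BARD1 was at −0.051 and RAD50 at −0.13. BRCC3 was at 0.021 with quantile normalization and 0.0063 with median centring, and FANCF at −0.024 with quantile normalization. With 1 library left out, BRCC3 ranged from −0.061 to 0.0089, BLM from −0.12 to 0.034, RAD51C from −0.095 to 0.045, ATR from −0.14 to 0.024 and ATRIP from −0.084 to 0.019. FANCG was not called with quantile normalization (adjusted p = 0.0584, limma). The cause was not tested in these cases. Genes as low as RAD51D, with a standard error of 0.171, limit what small changes can be seen.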
